A study of Mus musculus with 9 samples.

Results

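Transcripts of 9 enzymes that make or break down proline, arginine, asparagine and glutamine were compared between *Atf4* null and wildtype mouse lenses at E16.5. The members were the rows whose mouse gene symbol is *Aldh18a1*, *Pycr1*, *Pycr3*, *Oat*, *Prodh*, *Ass1*, *Asl*, *Asns* or *Glul*, 9 of the 55416 genes counted. All 9 were among the 14903 genes that passed the filter on low counts. RNA came from whole lenses, 1 library per embryo for its pair of lenses, from 4 *Atf4* null and 5 wildtype embryos. Null embryos were homozygous for *Atf4tm1Tow*, an allele in which the coding exons of *Atf4* are replaced by a neomycin resistance cassette, and wildtype embryos were littermates from matings of heterozygotes on a mixed C57Bl/6/129 background. Both sexes were used and no embryo was treated. The methods describe a null allele bred from heterozygous mice, which removes ATF4 from the whole embryo, whereas a data sheet of the study names a lens-conditional knockout, and the methods were followed here. The colony was not typed for the *Bfsp2* deletion that some 129 mice carry.

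ATF4 is a transcription factor that cells translate preferentially when amino acids run short, and genes for amino acid synthesis are among its best known targets. Proline is built from glutamate by P5C synthase (*Aldh18a1*) or from ornithine by ornithine aminotransferase (*Oat*), and both routes end in pyrroline-5-carboxylate reductases such as those of *Pycr1* and *Pycr3*, while proline dehydrogenase (*Prodh*) starts its breakdown. Argininosuccinate synthase (*Ass1*) and lyase (*Asl*) make arginine from citrulline, asparagine synthetase (*Asns*) makes asparagine from aspartate with glutamine as the nitrogen donor, and glutamine synthetase (*Glul*) makes glutamine from glutamate. The lens has no blood vessels of its own and accumulates very large amounts of protein.

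Of the 9 members, 7 had a RefSeq promoter sequence (GRCm38.p6), of which the 250 bases before the start given by RefSeq were searched. For *Pycr1* and *Asns* that start lies inside the gene's GENCODE span, which longer transcripts extend upstream. The motif was TGATGNAA on either strand, the core of the C/EBP-ATF response element, to which ATF4 is known to bind. It was found before *Pycr1* and *Asns*, 2 of the 7 members, and in 1.96% of the 13494 windows of genes tested and 3.24% of the 524 windows of genes lower in *Atf4* null lenses. It was also found in 3.45% of all 32851 promoter windows, of genes tested or not. Among the other genes of the same pathways it was found before *Got1* alone, in the opposite orientation, which is shown because *Got1* carries the same 8 letters as *Pycr1*. The 3 stretches are given on GRCm39, where the RefSeq sequence was placed by an exact match, with the motif in capitals and read along the motif's strand. The *Asns* and *Got1* stretches lie within exons of longer GENCODE transcripts of those genes, and that of *Asns* also within an exon of 1700012J15Rik on the plus strand. *Pycr1*, chr11:120534625-120534824 on the minus strand, covers bases -250 to -51 from the start, with the motif from -103 to -96. *Asns*, chr6:7693214-7693243 on the minus strand, has the motif from -23 to -16, and *Got1*, chr19:43513128-43513157 read on the plus strand, has it from -102 to -95.
Pycr1: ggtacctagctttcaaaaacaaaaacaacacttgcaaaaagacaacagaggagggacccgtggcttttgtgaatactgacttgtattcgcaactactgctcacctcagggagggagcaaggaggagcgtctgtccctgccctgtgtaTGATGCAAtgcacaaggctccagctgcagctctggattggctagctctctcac
Asns: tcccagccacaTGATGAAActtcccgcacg
Got1: ggaggcttgtaTGATGCAAccaatgcaatg
*Aldh18a1*, *Oat* and *Ass1*, which were also lower in *Atf4* null lenses, did not hold these letters in this window. A match describes the sequence and does not show that ATF4 binds there.

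Counts on genes ran from 7440807 to 8906996 per library, and levels are given as CPM, counts scaled to library size with TMM factors. The label check held: *Atf4* was counted at 119 to 155 CPM in the wildtype libraries against 0.582 to 10.6 CPM in the null ones, where the non-coding exons that the allele leaves can still give reads. The lens fiber list was abundant in all libraries, with a summed 13300 to 25300 CPM in wildtype and 9340 to 21200 CPM in *Atf4* null libraries, although *Lim2* was counted at 0. The cause of that 0 was not tested, and it does not show that *Lim2* is not expressed. Wildtype replicate 5 stood apart. Its 7 skeletal muscle markers summed to 2690 CPM and its 7 mesenchyme markers to 14400 CPM, against at most 30.2 and 553 CPM in the other 8 libraries. The *Atf4* null libraries also varied more among themselves than wildtype replicates 1 to 4, whose pairs differed by a chi-square per degree of freedom of 7.93 to 11.33. That of null pairs was 10.11 to 56.19, the highest between replicates 1 and 4, and replicate 1 held the highest sum of retina markers (712 CPM).

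The transcripts of 5 of the 9 enzymes fell in *Atf4* null lenses, *Aldh18a1*, *Pycr1*, *Oat*, *Ass1* and *Asns*, and 0 rose. These 5 stood between 2.14-fold (*Aldh18a1*) and 4.3-fold (*Pycr1*) lower. In the same test 3.67% of the 14903 genes were lower and 2.23% higher (adjusted p below 0.05 by the quasi-likelihood test of edgeR, with the Benjamini-Hochberg method applied over all genes). An unadjusted p below 0.05 was reached by 6 of the 9, all lower, against 19.6% of all genes, and DESeq2 called 6 of the 9, against 9.37% of all genes. The median log2 fold change was -1.10 over the 9 members and 0.001 over all genes tested. For the 5 enzymes called by edgeR the *Atf4* null and wildtype libraries did not overlap, as was the case for 10.2% of all genes tested. *Asl* missed the threshold with all libraries and passed it without wildtype replicate 5, when 6 of the 9 fell, against 4.96% of all genes lower and 8.33% called in either direction. *Pycr3*, *Prodh* and *Glul* did not pass in any setting tried. Without *Atf4* null replicate 2, *Atf4* null replicate 3 or wildtype replicate 1, only 3 of the 9 passed, against 3.41%, 3.64% and 4.08% of all genes. In bulk lens RNA, fewer cells of a type and less RNA per cell cannot be told apart.

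Markers of lens cells and of other cell types moved with genotype beside these enzymes. The 6 lens epithelium markers summed to 1070 to 1330 CPM in *Atf4* null and 1330 to 2100 CPM in wildtype libraries (2000 to 2100 without wildtype replicate 5), and 4 of the 6 were lower (adjusted p below 0.05). Of the 7 fiber markers tested, 3 were lower and 0 higher. Without wildtype replicate 5 the wildtype sum, 22100 to 25300 CPM, lay above every null library. The sum does not speak for each marker. *Bfsp1* stood at 1620 to 4100 CPM in *Atf4* null libraries and 6900 to 8150 CPM in wildtype replicates 1 to 4. In *Atf4* null replicate 4, *Bfsp2* (3250 CPM), *Mip* (4340 CPM) and *Gja3* (1300 CPM) lay above every wildtype library. The 9 retina markers summed to 286 to 712 CPM in *Atf4* null and 138 to 250 CPM in wildtype libraries, and 4 of the 8 tested were higher.

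Most mesenchyme markers and some pigment cell markers also stood higher in *Atf4* null lenses once wildtype replicate 5 was left out. Of the 7 mesenchyme markers 0 were higher and 1 lower with all libraries, and 6 were higher and 1 lower without that library. *Col1a1*, a fibrillar collagen gene, stood at 93.6 to 146 CPM in *Atf4* null libraries and 8.99 to 29.1 CPM in wildtype replicates 1 to 4, while *Pdgfra*, the marker that was lower, stood at 6.7 to 26.2 CPM in null and 180 to 258 CPM in all 5 wildtype libraries. The summed mesenchyme level was 211 to 553 CPM in *Atf4* null libraries and 241 to 265 CPM in wildtype replicates 1 to 4. Most of that wildtype sum was *Pdgfra*, at 180 to 227 CPM in the same replicates. The 6 pigment cell markers, with *Rpe65* at 0 in all libraries, summed to 43.1 to 109 CPM in *Atf4* null libraries, 20.2 to 42.1 CPM in wildtype replicates 1 to 4 and 141 CPM in replicate 5. Without that library 2 of the 4 tested were higher, and 0 with it.

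The summed level of the 6 endothelium markers was 151 to 341 CPM in *Atf4* null and 281 to 539 CPM in wildtype libraries, and that of the 6 macrophage markers 72.5 to 88.1 and 70.8 to 88 CPM. The 7 blood markers summed to 180 to 245 and 224 to 737 CPM, and 1 of the 6 tested was lower, or 2 without wildtype replicate 5. The part of all these cell types in the differences of the 9 enzymes was not tested.

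**Figure D1:**
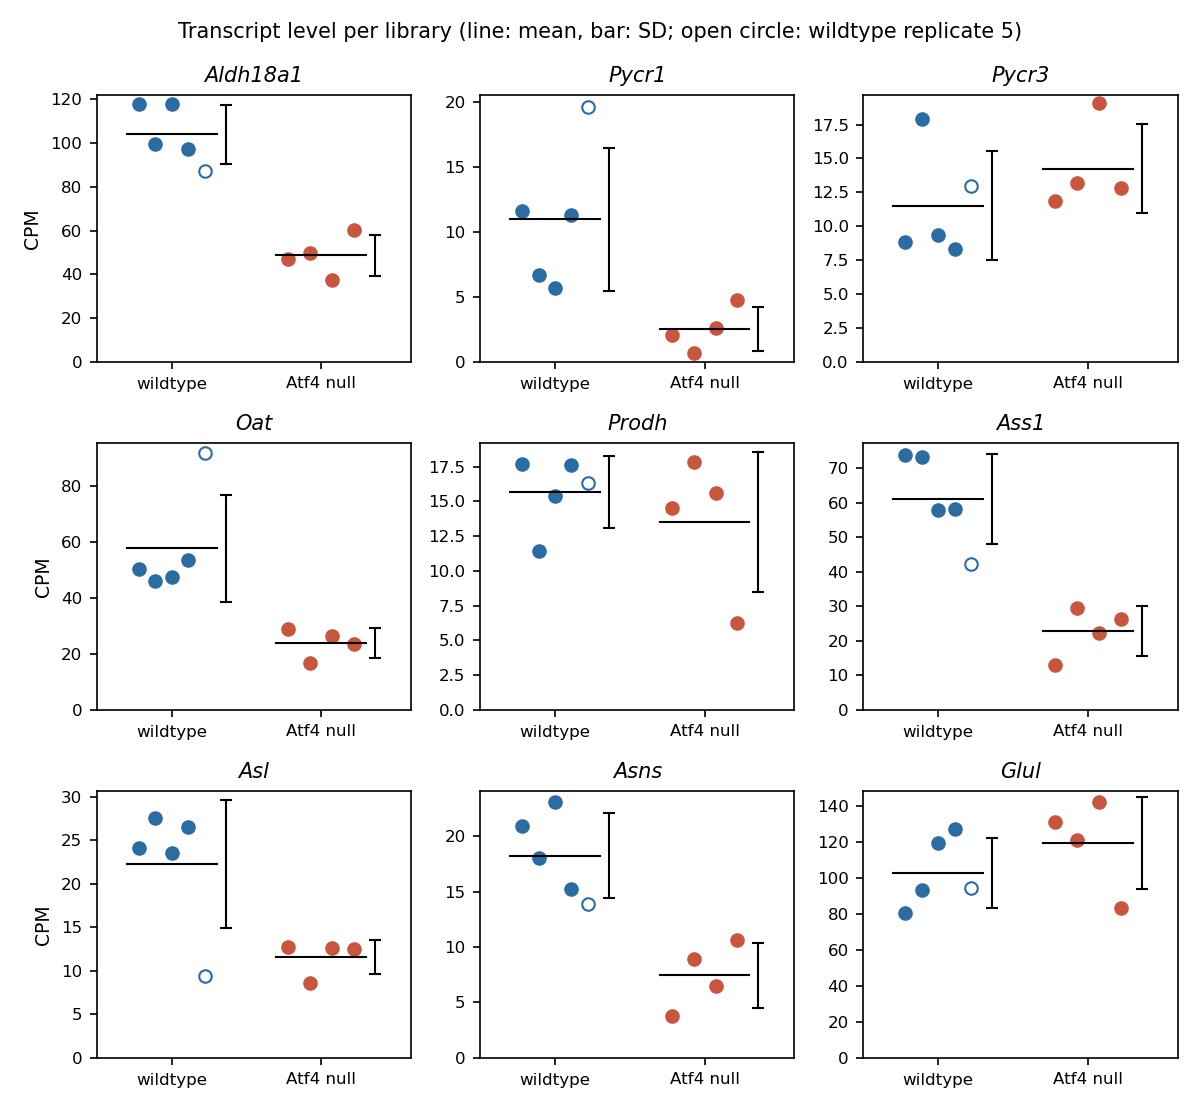
TMM-scaled CPM (vertical axes, each from 0) of the 9 enzymes in the 5 wildtype (blue) and 4 Atf4 null (red) libraries, with the mean as a line and the SD as a bar; the open circle is wildtype replicate 5. The genotypes do not overlap for Aldh18a1, Pycr1, Oat, Ass1 and Asns, while for Asl wildtype replicate 5, at 9.42 CPM, lies among the Atf4 null libraries.

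*Aldh18a1* (ENSMUSG00000025007, chromosome 19 from 40538698 to 40576949 on the minus strand) encodes P5C synthase, the mitochondrial enzyme that commits glutamate to proline and ornithine synthesis. Its CPM were 118, 99.7, 118, 97.5 and 87.1 in wildtype replicates 1 to 5 and 47.2, 49.9, 37.6 and 60.3 in *Atf4* null replicates 1 to 4. The highest null library was at 60.3 and the lowest wildtype library at 87.1, so the groups were well apart. The wildtype mean of 104 ± 13.7 CPM (SD, n = 5) fell to 48.8 ± 9.32 CPM (SD, n = 4), a log2 fold change of -1.10 (standard error 0.15, 95% interval -1.42 to -0.77, adjusted p = 0.000986 from edgeR). It kept its call in each of the 17 alternatives, with a log2 fold change between -1.21 and -0.98, and of -1.15 without wildtype replicate 5. On the other strand, the lncRNA Gm58925 shares 914 bases, 17.6%, of its exon length.

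*Pycr1* (ENSMUSG00000025140, chromosome 11 from 120526484 to 120539269 on the minus strand) encodes the mitochondrial reductase of the last step of proline synthesis, and carries the TGATGCAA motif shown above. Its CPM were 11.6, 6.66, 5.68, 11.3 and 19.6 in wildtype replicates 1 to 5 and 2.09, 0.72, 2.63 and 4.8 in *Atf4* null replicates 1 to 4. All 4 null libraries were below the lowest wildtype library, though the wildtype values spread widely and the highest was that of replicate 5. The log2 fold change was -2.10 (standard error 0.53, 95% interval -3.25 to -0.96, adjusted p = 0.0326 from edgeR), the largest fall among the 9 members and the least precise, on 6 to 183 counts per library. Without wildtype replicate 5 it was -1.78. The adjusted p of edgeR lost the threshold without *Atf4* null replicate 1 (0.075), 2 (0.0807) or 3 (0.0906) and without wildtype replicate 1 (0.0694) or 4 (0.0707). It lay between 0.00454 and 0.0906 over the 15 alternatives with edgeR and was 0.00104 under DESeq2.

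*Pycr3* (ENSMUSG00000022571, chromosome 15 from 75787846 to 75793424 on the minus strand) encodes a cytosolic relative of PYCR1 that works with ornithine-derived substrate. Its CPM were 8.86, 17.9, 9.39, 8.35 and 13 in wildtype and 11.9, 13.2, 19.1 and 12.8 in *Atf4* null replicates. The groups overlapped across most of their range. Its log2 fold change was 0.31 (standard error 0.28, 95% interval -0.30 to 0.92, adjusted p = 0.626 from edgeR), and its exons share 419 bases, 13.5% of their length, with the lncRNA Gm63150 on the other strand.

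Per kilobase of the annotation's canonical transcript (FPKM), the level of *Pycr1* was 6.13, 3.54, 3.01, 5.98 and 10.4 in wildtype replicates 1 to 5 and 1.11, 0.382, 1.4 and 2.55 in *Atf4* null replicates 1 to 4. That of *Pycr3* was 6.53, 13.2, 6.92, 6.16 and 9.55 in wildtype and 8.74, 9.73, 14.1 and 9.44 in *Atf4* null replicates. On this scale *Pycr1* was below *Pycr3* in every null library and in wildtype replicates 1 to 4, and above it in wildtype replicate 5.

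*Oat* (ENSMUSG00000030934, chromosome 7 from 132159153 to 132191517 on the minus strand) encodes the enzyme that interconverts ornithine and glutamate semialdehyde and so links the arginine and proline pathways. Its CPM were 50.3, 45.9, 47.6, 53.7 and 91.6 in wildtype replicates 1 to 5 and 28.8, 16.6, 26.5 and 23.4 in *Atf4* null replicates 1 to 4. Wildtype replicates 1 to 4 lay close together, replicate 5 stood far above them, and every null library was lower than all 5. The log2 fold change was -1.28 (standard error 0.24, 95% interval -1.79 to -0.77, adjusted p = 0.00601 from edgeR). Without wildtype replicate 5 it was -1.05 with an adjusted p of 0.00194, and it kept its call in each of the 17 alternatives, with an adjusted p between 7.55e-05 and 0.0282 in edgeR and of 1.14e-05 in DESeq2.

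*Prodh* (ENSMUSG00000003526, chromosome 16 from 17877575 to 17908067 on the minus strand) encodes the mitochondrial enzyme that oxidises proline, the first step of its breakdown. Its CPM were 17.7, 11.4, 15.4, 17.6 and 16.3 in wildtype and 14.5, 17.8, 15.6 and 6.26 in *Atf4* null replicates. The groups overlapped, with *Atf4* null replicate 4 the lowest library and wildtype replicate 2 the next. The log2 fold change was -0.21 (standard error 0.29, 95% interval -0.83 to 0.41, adjusted p = 0.768 from edgeR) and was 0.02 without *Atf4* null replicate 4 (adjusted p = 0.981). Its exons share 293 bases with those of *Dgcr6* on the other strand.

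*Ass1* (ENSMUSG00000076441, chromosome 2 from 31352181 to 31410862 on the plus strand) encodes the enzyme that joins citrulline and aspartate, the limiting step of arginine synthesis outside the liver. Its CPM were 73.8, 73.3, 57.9, 58.1 and 42.2 in wildtype replicates 1 to 5 and 12.9, 29.5, 22.3 and 26.4 in *Atf4* null replicates 1 to 4. The null libraries were all below the wildtype libraries, of which replicate 5 was the lowest. The wildtype mean of 61.1 ± 13.1 CPM (SD, n = 5) fell to 22.7 ± 7.23 CPM (SD, n = 4), a log2 fold change of -1.43 (standard error 0.24, 95% interval -1.95 to -0.90, adjusted p = 0.00362 from edgeR). Without wildtype replicate 5 it was -1.53, and without *Atf4* null replicate 1, the lowest library, -1.22. The call held in each of the 17 alternatives, with a log2 fold change between -1.58 and -1.22.

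*Asl* (ENSMUSG00000025533, chromosome 5 from 130040099 to 130058088 on the minus strand) encodes the enzyme that splits argininosuccinate into arginine and fumarate, the step after ASS1. Its CPM were 24.1, 27.6, 23.6, 26.6 and 9.42 in wildtype replicates 1 to 5 and 12.7, 8.64, 12.6 and 12.5 in *Atf4* null replicates 1 to 4. Wildtype replicates 1 to 4 were all above the null libraries, and replicate 5, the library with muscle and mesenchyme transcripts, lay among them. With all libraries the log2 fold change was -0.94 (standard error 0.30, 95% interval -1.58 to -0.30) and did not pass, with an adjusted p of 0.087 and an unadjusted p of 0.00713 from edgeR. Without wildtype replicate 5 it was -1.13 and passed with an adjusted p of 0.00373. Over the 17 alternatives the adjusted p ran from 0.00373 to 0.214 and passed in 3.

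*Asns* (ENSMUSG00000029752, chromosome 6 from 7671667 to 7728461 on the minus strand) encodes asparagine synthetase, whose gene is a standard readout of amino acid shortage in cultured cells, and carries the TGATGAAA form of the motif. Its CPM were 20.9, 18, 23.1, 15.2 and 13.9 in wildtype replicates 1 to 5 and 3.79, 8.88, 6.47 and 10.6 in *Atf4* null replicates 1 to 4. The groups did not overlap, with the highest null library at 10.6 and the lowest wildtype library at 13.9. The log2 fold change was -1.30 (standard error 0.31, 95% interval -1.96 to -0.63, adjusted p = 0.0243 from edgeR). Without wildtype replicate 5 it was -1.38, and without *Atf4* null replicate 1, the lowest library, -1.07 with an adjusted p of 0.0419. The adjusted p of edgeR lost the threshold without *Atf4* null replicate 2 (0.0542) or 3 (0.0818) and without wildtype replicate 1 (0.0616), 2 (0.0545) or 3 (0.0694). It lay between 0.0043 and 0.0818 over the 16 alternatives with edgeR and was 0.00179 under DESeq2.

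*Glul* (ENSMUSG00000026473, chromosome 1 from 153775690 to 153785469 on the plus strand) encodes glutamine synthetase, which is also abundant in glia of the mature retina. Its CPM were 80.2, 93.2, 119, 127 and 94.1 in wildtype replicates 1 to 5 and 131, 121, 142 and 83 in *Atf4* null replicates 1 to 4. The groups overlapped, with *Atf4* null replicate 4 below 4 of the 5 wildtype libraries. The log2 fold change was 0.22 (standard error 0.17, 95% interval -0.15 to 0.59, adjusted p = 0.546 from edgeR). *Slc1a3* and *Rlbp1*, from the retina list, stood at 11.4 to 34.3 and 1.23 to 10.4 CPM in wildtype libraries. In *Atf4* null libraries they stood at 22.9 to 114 and 2.77 to 15.2 CPM, with overlap for both. At E16.5 they are not taken as markers of glia.

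For each of the 5 enzymes that fell, the exact permutation test on the difference of mean log2 CPM gave p = 0.0079, two-sided, the smallest p that 4 libraries against 5 allow. For *Asl* the same exact test gave p = 0.04, for *Pycr3* 0.27, for *Prodh* 0.49 and for *Glul* 0.33. These are unadjusted values for single genes. By the methods each library came from 1 pair of lenses, so all p-values measure the spread between embryos. The labels name no litter, so that spread can hold litter differences.

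**Figure D2:**
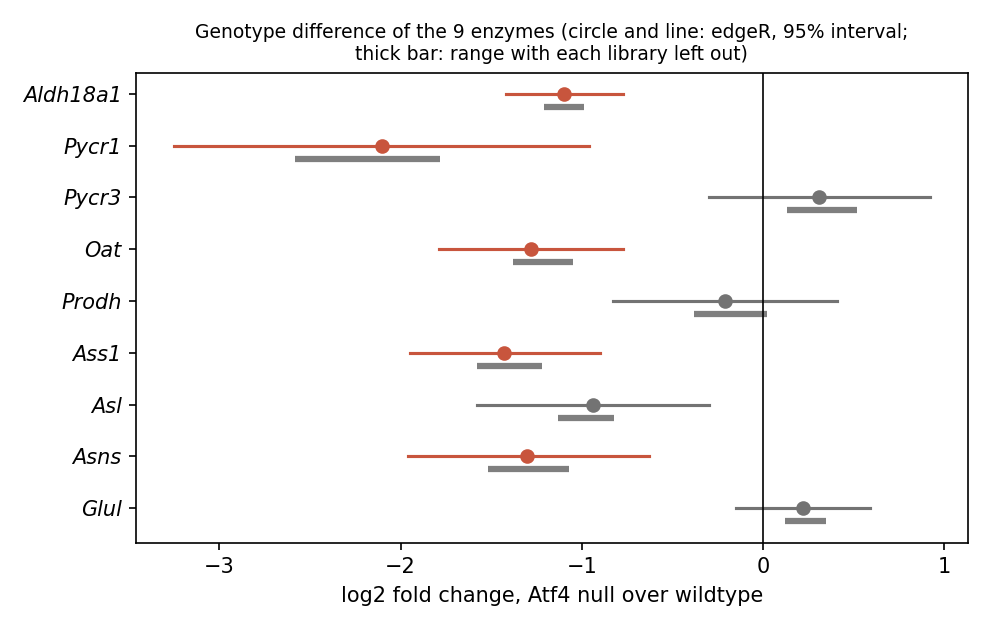
Log2 fold change of Atf4 null over wildtype lenses (horizontal axis) for the 9 enzymes, as circles with 95% intervals from edgeR, in red where the adjusted p was below 0.05; the thick grey bar is the leave-one-out range. The intervals of Pycr3, Prodh and Glul include 0, while that of Asl ends at -0.30.

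Set in order by their wildtype level per canonical transcript length, the members ran from *Glul*, at 60.2 ± 11.4 FPKM (SD, n = 5), through *Ass1* (34.7), *Aldh18a1* (29.5), *Oat* (26.2), *Pycr3* (8.47), *Asl* (8.38), *Prodh* (6.57) and *Pycr1* (5.81) to *Asns* at 3.72 ± 0.783 FPKM. The wildtype ranges separated *Glul* from *Ass1*, at 47.1 to 74.4 and 24 to 41.9 FPKM, and *Oat* from *Pycr3*, at 20.8 to 41.5 and 6.16 to 13.2 FPKM. The other neighbours in this order overlapped. Without wildtype replicate 5, *Asl* (9.59 FPKM) stood above *Pycr3* (8.2 FPKM), still with overlap, and *Aldh18a1*, at 27.6 to 33.5 FPKM, was also separated from *Oat*, at 20.8 to 24.3 FPKM. The order depends on the transcript length used: per summed exon length, *Aldh18a1* (20) stood above *Ass1* (16.3) and *Prodh* (1.43) below *Asns* (1.56). In *Atf4* null lenses *Glul* was still the highest, at 70 ± 15 FPKM (SD, n = 4), and *Pycr1* (1.36 ± 0.901 FPKM) and *Asns* (1.52 ± 0.607 FPKM) overlapped at the low end, with *Asns* the lower in 3 of the 4 libraries.

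A list of 34 other genes of the same pathways was examined beside the members, of which 27 passed the filter on low counts. Of these 27 genes, *Gamt* and *Ddah1* fell and *Odc1* and *Sms* rose, 14.8% against 5.9% of all genes tested, and the median log2 fold change was -0.188. All 4 belonged to the group of arginine, ornithine and polyamine genes. None of the 3 proline, 4 asparagine and aspartate or 6 glutamine and glutamate genes passed in edgeR, while 1 proline and 1 glutamine gene (*Pepd* and *Gls2*) had an unadjusted p below 0.05, which 19.6% of all genes reached. Under DESeq2, 6 of the list passed, and 9.37% of all genes.

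*Gamt*, which encodes the last enzyme of creatine synthesis from arginine, fell from 14.4, 8.52, 12.7, 10.6 and 12 CPM in wildtype to 4.09, 3.48, 1.54 and 4.37 CPM in *Atf4* null replicates (-1.79 on the log2 scale with a standard error of 0.36, adjusted p = 0.0102 in edgeR). *Ddah1*, whose product hydrolyses methylated arginines that inhibit nitric oxide synthase, fell from 35.9 ± 3.81 to 19 ± 6.33 CPM (-0.91 on the log2 scale with a standard error of 0.22, adjusted p = 0.0287 in edgeR). *Odc1* encodes ornithine decarboxylase, the first enzyme of polyamine synthesis, which shares its substrate with OAT. Its CPM were 132, 151, 138, 139 and 90.5 in wildtype replicates 1 to 5 and 174, 206, 239 and 291 in *Atf4* null replicates 1 to 4, with no overlap. It rose with a log2 fold change of 0.80 (standard error 0.17, 95% interval 0.44 to 1.17, adjusted p = 0.0129), was 0.70 without wildtype replicate 5, and passed in each of the 17 alternatives. *Sms*, which encodes spermine synthase, rose from 58.1 ± 5.83 to 84.3 ± 8.58 CPM (0.54 on the log2 scale with a standard error of 0.12, adjusted p = 0.0212 in edgeR).

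For *Gamt* and *Odc1* the call held with each library left out. *Sms* lost it without *Atf4* null replicate 2 (adjusted p = 0.064 from edgeR) or 4 (0.0526) without wildtype replicate 1 (0.0573) or 4 (0.0626), and under the replicate block (0.0731). *Ddah1* lost it without *Atf4* null replicate 2 (0.0779) or 4 (0.0658), without wildtype replicate 1 (0.0619), 2 (0.0544), 3 (0.0764) or 4 (0.0575), and with libraries scaled by size alone (0.0793).

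The remaining steps around the members gave values that did not pass. *Aldh4a1*, which encodes the enzyme that completes proline breakdown, had 6 to 28 counts per library and a 95% interval from -1.62 to 1.5 on the log2 scale. *Gls2*, which encodes a glutaminase that turns glutamine back into glutamate, stood at 6.16 ± 1.96 and 2.74 ± 1.3 CPM (log2 fold change -1.16, 95% interval -2.19 to -0.14, adjusted p = 0.19).

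The log2 fold changes of *Glud1* (glutamate dehydrogenase), *Got1* and *Got2* (aspartate aminotransferases) were 0.03, -0.19 and 0.13, with 95% intervals of -0.24 to 0.30, -0.80 to 0.42 and -0.14 to 0.41. *Got1* thus carried the TGATGCAA motif without passing the test. *Pepd*, named after its values were seen because it was the 1 gene of the list without overlap between groups that missed the threshold, encodes a dipeptidase that frees proline and had a log2 fold change of -0.41 (adjusted p = 0.0808 from edgeR). It passed without wildtype replicate 5 (0.0429) and under DESeq2 (0.0497). *Otc*, which makes citrulline in the liver, had 0 counts in all 9 libraries, where 3 counts would be 0.299 to 0.437 CPM.

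**Figure D3:**
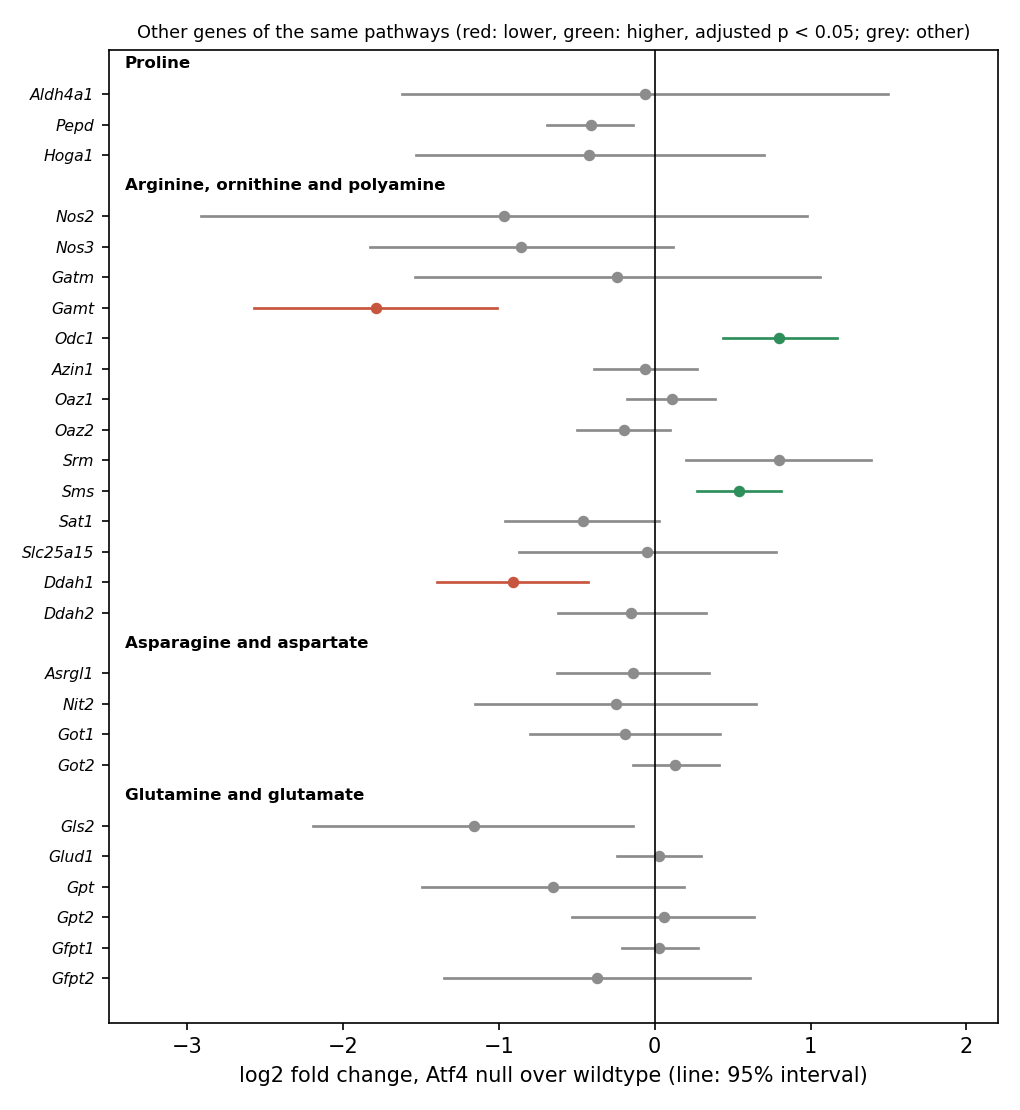
Log2 fold change of Atf4 null over wildtype lenses with 95% intervals from edgeR (horizontal axis) for the 27 tested genes of the same pathways, by group. Gamt and Ddah1 (red) were lower and Odc1 and Sms (green) higher with an adjusted p below 0.05, and the other 23 (grey) did not pass.

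For each enzyme that fell, the 3 tested genes with the most similar levels over the 9 libraries were found by the root mean square difference of centred log2 CPM. Nearest to *Aldh18a1* were *Osgin2* (0.124), *Mars1* (0.136), which encodes methionyl-tRNA synthetase, and *Atp8a1* (0.154). The genes nearest to *Ass1* were *Cdkn1c* (0.201), which encodes a cyclin-dependent kinase inhibitor, *Pygm* (0.205), the muscle glycogen phosphorylase, and *Sox1ot* (0.207). *Asns* was nearest to Gm43719 (0.17), *Crygs* (0.181), which encodes γS-crystallin, and *Cyyr1* (0.188). *Oat* had *Adam12* (0.284), *Loxl1* (0.296) and *Fstl1* (0.296) nearest, and its level and that of the mesenchyme markers were both highest in wildtype replicate 5. *Pycr1*, with few counts, had no close match, the nearest being Gm44091 (0.411), *Inha* (0.488) and Gm43130 (0.489). The measure includes the genotype difference itself and is a description over 9 libraries.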

How the data were processed

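RNA from single pairs of E16.5 lenses was sequenced by the authors (Takara SMARTer Stranded Pico v2, Illumina NovaSeq). Per the methods and labels, the authors trimmed reads with Trim Galore, used HISAT2 to remove reads of RN45S, and then counted reads aligned to GRCm39 per Ensembl gene with HTSeq. The strand setting is not given in the sources used here. The deposited values are whole counts without normalization. Their 5 summary entries, which name no gene and held 44.6 to 47.7% of reads, were left out. Reads aligned to more than 1 place were not counted, which lowers genes with near-identical copies. Among 36 library pairs none was a repeat (chi-square over degrees of freedom at least 7.93). The wildtype sample titles name other libraries than the count files do, so wildtype replicate numbers are uncertain and the genotype is not.

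Symbols, positions and lengths came from GENCODE vM39 (GRCm39), which matched 54749 of 55416 identifiers. Genes were filtered with filterByExpr, scaled by TMM and tested with edgeR 4.0.16 in R 4.3.3 (glmQLFit, glmQLFTest, no covariate), with Benjamini-Hochberg adjustment over 14903 genes. On simulated counts the procedure called 48% of genes changed by 1 on the log2 scale and 85% of those changed by 2. It made 7 false calls, so many changes of 2-fold size would be missed. The study used exactTest, kept here as an alternative. Standard errors are the log2 fold change over the square root of F. FPKM divide TMM-scaled CPM by canonical transcript length. The log2 CPM used for permutations and nearest genes had a prior count of 2. Intervals cover 95%. Promoter windows were searched with Python 3.11.15.

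The genes named are the members, *Atf4*, pathway genes with an adjusted p below 0.05 and a fixed set of enzymes around the members, the 3 nearest genes of each member called, and cell type markers beside a result. *Pepd* and the markers singled out were chosen after their values were seen. Some genes of these pathways are not reported here. The members, lists and tests were chosen with earlier results of these data known. The alternatives were DESeq2 1.42.0, exactTest, a robust fit, library size alone, TMM without crystallins, no filter, at least 10 counts in every library, a replicate block and each library left out.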

Additional observations from a re-analysis of the deposited data

Results flagged for a closer look

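For 21 genes, the members, *Atf4* and the named pathway genes, the highest and lowest library of each genotype were compared with the spread of the others, in 40 groups with any counts. Chance flags about 1 group in 20. In wildtype replicate 5, *Oat* stood far above the other wildtype libraries, at 91.6 CPM against at most 53.7, and *Asl* far below them, at 9.42 CPM against at least 23.6. *Asl* was also low in *Atf4* null replicate 2, at 8.64 CPM against at least 12.5 in the other null libraries. *Got1* was high in *Atf4* null replicate 2, at 15.5 CPM against at most 9.46. Wildtype replicate 5 is the library whose muscle and mesenchyme markers summed to 2690 and 14400 CPM, and the part of those tissues in its *Oat* and *Asl* values was not tested.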

How the results depend on the processing

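*Aldh18a1*, *Oat*, *Ass1*, *Gamt* and *Odc1* kept direction and call in all 17 alternatives, and *Atf4* in the 16 that could test it. Adjusted p-values are from edgeR or, where named, DESeq2. *Pycr1* and *Asns* kept their direction in every alternative and lost the call only with a library left out (log2 fold change -2.58 to -1.78 and -1.52 to -1.07). *Pycr1* was not tested when 10 counts were required in every library. *Asl* passed under DESeq2 (-0.93, adjusted p = 0.032), under the replicate block (-1.14, adjusted p = 0.0211) and without wildtype replicate 5 (leave-one-out range -1.13 to -0.82). *Prodh* changed sign in the leave-one-out range, -0.38 to 0.02. With a library left out, 3 to 6 of the 9 enzymes, 2 to 5 of the pathway list (6 under DESeq2) and 527 to 1207 of all genes passed, of which 172 to 488 were higher and 355 to 719 lower. Under DESeq2 these were 1397, 562 and 835.

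Among genes not called, *Aldh4a1* changed sign with library size alone (0.01), with the replicate block (0.00) and in the leave-one-out range (-0.67 to 0.32), and *Glud1* in its range of -0.05 to 0.09. With library size alone, 790 genes were higher and 439 lower, so 64.3% of calls were higher against 37.8% with TMM, and the median over all genes, on the log2 scale, moved from 0.001 to 0.125. The 9 enzymes kept their direction, *Prodh* at -0.06. The cause of these changes was not tested.

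Deviations of same-numbered libraries correlated at -0.131 to 0.008, and none matched its own number best. As the wildtype replicate numbers are uncertain, this cannot show whether any libraries were paired. The block, in which wildtype replicate 5 is alone and carries no weight, gave 852 calls against 880, and took the call from *Sms* (0.53, adjusted p = 0.0731). Low counts limit *Pycr1* (6 to 183 per library), *Gls2* (12 to 62) and *Aldh4a1* (6 to 28). The marker sums and the order of levels without wildtype replicate 5 were added after seeing the data.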
